A study of Caenorhabditis elegans with 2 samples.

Results

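The genes described here make the protein factors of translation and the enzymes that load tRNAs with amino acids in Caenorhabditis elegans. They were chosen by name from the Ensembl annotation: protein-coding genes whose names start eif-, eef-, iff-, ife- or ifg-, genes named by 1 letter followed by ars-1 or ars-2, and drr-2. This gave 71 of 19973 protein-coding genes, of which 40 are translation factors (drr-2 included) and 31 are aminoacyl-tRNA synthetases. The measurement was binding of the zinc finger protein ZTF-22 to chromatin near their transcript starts.

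Initiation factors bring the small ribosomal subunit, the initiator tRNA and the capped mRNA together. Elongation factors then deliver each aminoacyl-tRNA and move the ribosome along, and eIF5A helps the ribosome through sequences at which it stalls. Each synthetase joins one kind of amino acid to its tRNAs, and mitochondria use their own or a shared enzyme for the same step. Cells that make protein need machinery of this kind, but not every gene of a paralog pair need be active in each of them.

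All animals were strain OP676, which carries the mutation unc-119(tm4063). Its transgene wgIs676 holds ztf-22::TY1::EGFP::3xFLAG and a working copy, unc-119(+). Per the labels, males and females were pooled as whole young adults of 68 hours, after synchronisation by starving bleached L1 larvae. Sonicated chromatin was precipitated with an anti-GFP antibody (the antibody field of the labels reads ztf-22). There was 1 group with 2 replicates that the labels call biological, and no untagged strain or other condition among these samples. The labels do not say how many copies of the transgene the strain has, and a whole-animal signal cannot separate strong binding in few nuclei from weak binding in many.

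The values are the authors' lists of regions on ce11: 30000 candidate regions from each replicate and 30000 from the reads of both together, and a list of 952 optimal peaks. Those peaks were the 952 pooled regions of highest signal, with a lowest signal of 110.1. Signal is the value that the authors' peak caller gave to a region, and its medians differed (19.2 for replicate 1, 34.5 for replicate 2, 48.4 pooled), so regions are compared between lists by rank, rank 1 being the strongest. The pooled list shares its reads with both replicates and is not a further sample. Read depth is unknown, and no interval could be given for it. A gene was counted when the summit of a region lay from 500 bp upstream to 200 bp downstream of one of its transcript starts, and its strongest such region gave its rank.

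ZTF-22 had an optimal peak at 6 of the 71 genes (8.45%), against 1.91% of all protein-coding genes. Without drr-2, the only gene added by its own name, the count was 5. The members were chosen with earlier results of these data known, so the count is a description and not a test. The 6 were iff-2 for eIF5A, drr-2 for a homologue of eIF4H, eef-1A.2 for elongation factor 1A, eif-3.C for a subunit of eIF3, and aars-1 and ears-2 for the mitochondrial enzymes that load alanine and glutamate. The peaks lay on 5 chromosomes, 5 of them 49 to 400 bp upstream of the transcript start and 1 downstream of it.

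The DNA under 4 of these summits is shown first, together with that of the next pair of genes in rank, eef-1G and eef-1A.1, so that the sequence can be read beside the ranks. Each run is from the WBcel235 genome of RefSeq, which is the same assembly as ce11, is written 5′ to 3′ on the strand of the gene, and is centred on the pooled summit except where it stops at the gene's first annotated base. Capitals mark TGCGTA or its reverse complement TACGCA, and CTGCGTCTC. Of the 6 optimal peaks, eif-3.C and ears-2 are not printed and hold none of these words, while eef-1G and eef-1A.1 are not optimal peaks, so the printed set is no count of the words. The coordinates in the same order are chrII:8561397-8561497 on the minus strand, chrIII:13643684-13643784 minus, chrX:7823204-7823304 plus, chrII:11464498-11464596 minus, chrV:10965649-10965718 plus and chrIII:6972090-6972190 minus.
iff-2: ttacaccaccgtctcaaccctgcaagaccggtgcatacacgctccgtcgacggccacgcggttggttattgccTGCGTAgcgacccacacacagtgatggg
drr-2: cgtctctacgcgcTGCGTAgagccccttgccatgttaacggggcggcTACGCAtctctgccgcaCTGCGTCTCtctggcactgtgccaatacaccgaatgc
eef-1A.2: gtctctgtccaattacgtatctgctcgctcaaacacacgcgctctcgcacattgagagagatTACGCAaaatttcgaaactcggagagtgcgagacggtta
aars-1: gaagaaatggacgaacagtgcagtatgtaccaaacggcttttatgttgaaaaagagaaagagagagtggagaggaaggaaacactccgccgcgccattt
eef-1G: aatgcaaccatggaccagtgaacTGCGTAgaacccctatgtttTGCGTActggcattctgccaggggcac
eef-1A.1: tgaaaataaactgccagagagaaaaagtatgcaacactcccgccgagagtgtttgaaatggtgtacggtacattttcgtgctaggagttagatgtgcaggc

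In the pooled list and in replicate 2, the strongest signal at any of the 71 genes was at iff-2 (WBGene00002065; chromosome II, 8559375-8561367, minus strand), which encodes eIF5A. Its region had a signal of 67.0 in replicate 1, 190.5 in replicate 2 and 259 when pooled, at ranks 85, 46 and 46. The highest signals of those lists were 188, 390 and 555, so the region was strong in each. The summit lay 91 bp upstream of the start in replicate 1, 55 bp upstream in replicate 2 and 80 bp upstream when pooled, in intergenic DNA with no other gene's promoter window over it. The nearest non-coding gene, the snoRNA gene F54C9.12, was 675 bp away. The other eIF5A gene of the worm, iff-1, ranked 17085 in the pooled list with a signal of 46.0, ranked 12592 in replicate 2 and had no region in replicate 1. Of the pair, only iff-2 was therefore near the top of any list.

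drr-2 (WBGene00011730; chromosome III, 13642420-13643570, minus strand) encodes an RNA-binding protein related to eIF4H, a cofactor of the helicase that opens mRNA for initiation. Its region had a signal of 63.6 in replicate 1, 181.6 in replicate 2 and 249.9 when pooled, at ranks 115, 55 and 52. The 3 summits fell within a short stretch 148 to 164 bp upstream. The divergent gene set-16 starts 182 bp from the pooled summit and shares it, so the peak cannot be given to either gene. Of the other 6 genes on the cap-binding side, which encode eIF4E or eIF4G proteins, ife-5 (rank 13903) and ife-3 (rank 29405) had a weak pooled region, and none had an optimal peak. Of all protein-coding genes, 28.3% had a pooled region and 1.91% an optimal peak.

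The eEF1 complex brings aminoacyl-tRNA to the ribosome. A pooled region lay at 4 of its 5 genes (80%), against 28.3% of all protein-coding genes. The ranks were 112, 987, 1305 and 2474, and the summits at ranks 987, 1305 and 2474 were shared with a neighbouring gene. eef-1A.2 (WBGene00001169; chromosome X, 7823654-7825769, plus strand) encodes the factor that carries the tRNA. It had a signal of 68.1 in replicate 1, 128.1 in replicate 2 and 201.6 when pooled, at ranks 78, 219 and 112. Its summits lay 382 to 400 bp upstream and in no other promoter window, and the non-coding gene R03G5.8 was 131 bp from the pooled summit. It was the highest-ranked of the 71 genes in replicate 1.

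eef-1A.1, the other gene for elongation factor 1A, fell outside the optimal list. Its signals were 37.9 in replicate 1, 55.9 in replicate 2 and 99.5 when pooled, at ranks 958, 3053 and 1305. That summit was 428 bp upstream of eef-1A.1 but 113 bp from the start of the divergent gene rfc-4, and 55 bp from the miRNA gene cel-mir-5549. The upstream regions of the 2 paralogs can be told apart by sequence, since in each 390 bp region all 355 of the 36-base words occur once in the genome. In their coding exons they share 92 such words, 7.37% of those in eef-1A.1 and 7.17% of those in eef-1A.2.

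eef-1G, for the gamma subunit of eEF1, stood just outside the optimal list at pooled rank 987 with a signal of 108.9. It ranked 686 in replicate 2 with a signal of 89.7 and 9387 in replicate 1 with a signal of 22.2. The pooled summit was 20 bp upstream of the start, and the divergent gene ctf-4 starts 160 bp away. eef-1B.1, for a subunit that recharges elongation factor 1A with GTP, ranked 4457 in replicate 1, 2854 in replicate 2 and 2474 when pooled. Its summit was inside the non-coding gene F54H12.9 and was shared with aco-2. eef-1B.2 had no region in any list. eef-2, whose product moves the ribosome by one codon, ranked 3349 in replicate 1, 13378 in replicate 2 and 4432 when pooled.

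**Figure D1:**
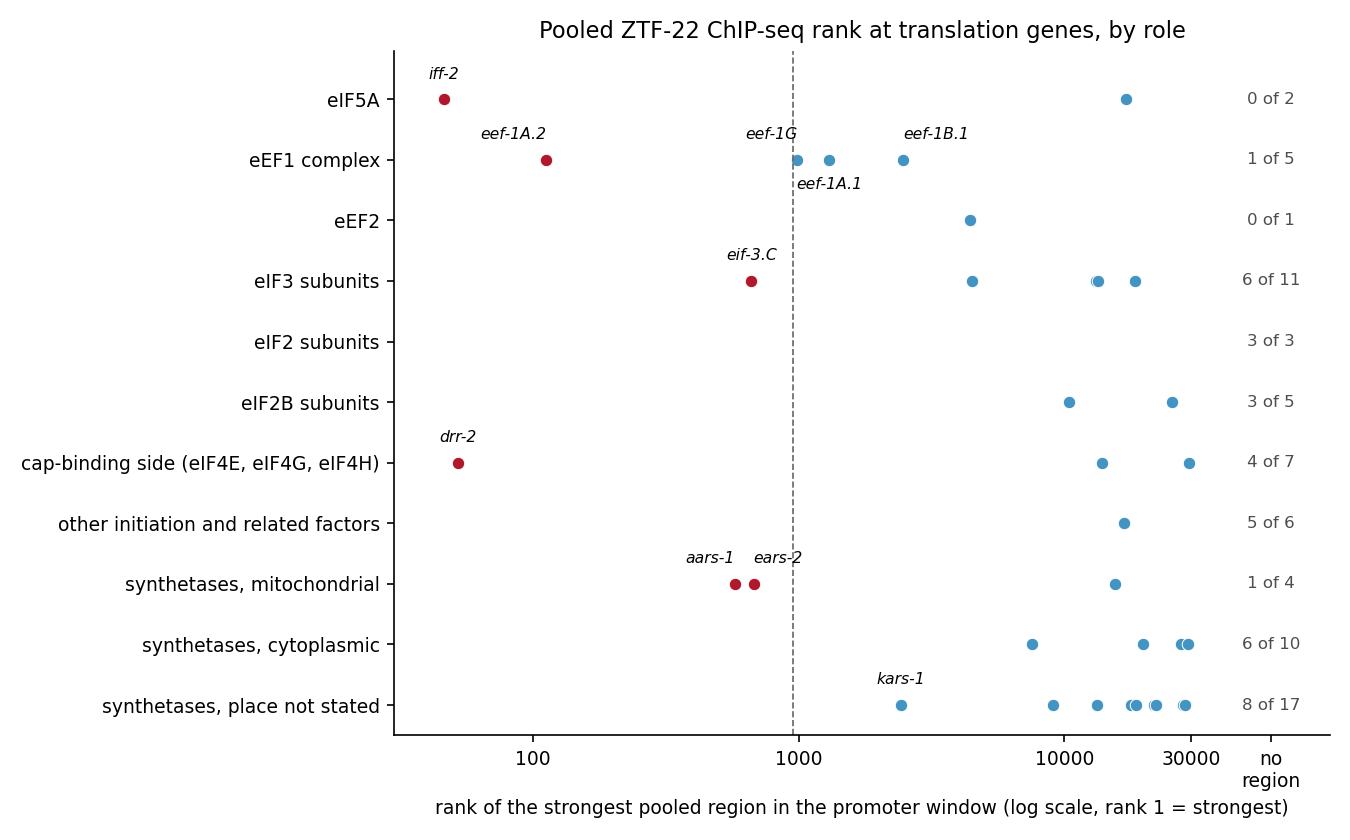
Each point is 1 gene with a pooled region in its promoter window, placed by the rank of that region on a log scale and by the gene's role; red points have an optimal peak, the dashed line is rank 952, and the right-hand column gives how many genes of the role have no pooled region. The 6 red points are iff-2, drr-2, eef-1A.2, aars-1, eif-3.C and ears-2, and the eEF1 complex has 3 further points up to rank 2474.

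eIF3 is the scaffold on which the initiation complex forms. Of its 11 subunits that the name rule takes in, only eif-3.C (9.09%) had an optimal peak in its promoter window, against 1.91% of all protein-coding genes. eif-3.C (WBGene00001226; chromosome I, 9976426-9979662, minus strand) had a signal of 22.1 in replicate 1, 102.3 in replicate 2 and 124 when pooled. Its rank was 459 in replicate 2 and 662 in the pooled list but 9564 in replicate 1, so it was among the 952 strongest regions of replicate 2 but not of replicate 1. The pooled summit lay 265 bp upstream, in no other gene's window. eif-3.B ranked 4506 in the pooled list, eif-3.D 13214, eif-3.I 13456 and eif-3.E 18449. eif-3.H had a region in replicate 1 alone, at rank 27213, and eif-3.F, eif-3.G, eif-3.J, eif-3.K and eif-3.L had none in their windows in any list.

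The remaining initiation factors had weak pooled regions or none. None of the 3 subunits of eIF2, which carries the initiator tRNA, had a pooled region. Of the 5 subunits of eIF2B, which recharges eIF2 with GTP, eif-2Bbeta ranked 10455 and eif-2Bdelta 25498 (1934 in replicate 1, with no region in replicate 2), and the others had no pooled region. eif-6, for a factor that keeps free large subunits apart from small ones, ranked 16724 and was the only one of the 6 other factors with a pooled region. Altogether 18 of the 40 factors (45%) had a pooled region, against 28.3% of all protein-coding genes, and 4 of 40 (10%) an optimal peak, against 1.91%.

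Of the 31 synthetase genes, 2 (6.45%) had an optimal peak, against 1.91% of all protein-coding genes. They were aars-1 and ears-2, and RefSeq describes both products as mitochondrial. aars-1 (WBGene00000196; chromosome II, 11460205-11464497, minus strand) had a signal of 34.5 in replicate 1, 90.4 in replicate 2 and 129.9 when pooled, at ranks 1452, 674 and 576. Its 3 summits lay within 4 bp of each other, 46 to 50 bp upstream. The gene rga-1 starts 348 bp away on the other strand and shares the summit. aars-2, for the cytoplasmic alanine enzyme, ranked 19830 in the pooled list, 28214 in replicate 1 and 29408 in replicate 2.

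ears-2 (WBGene00001338; chromosome IV, 388686-390468, minus strand) had a signal of 49.4 in replicate 1, 81.0 in replicate 2 and 123 when pooled, at ranks 335, 934 and 676. The summit lay 52 bp upstream of the start in replicate 1 but 59 bp downstream in replicate 2 and when pooled, inside a coding exon, so the replicate summits were 111 bp apart. The divergent gene uncp-18 starts 151 bp from the pooled summit and shares it. ears-1, for the other glutamate enzyme, had no region in any list.

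RefSeq product names place 4 of the synthetases in mitochondria, 10 in the cytoplasm, and give no place for 17. The optimal peaks were at 2 of the 4 mitochondrial genes, 0 of the 10 cytoplasmic genes and 0 of the 17 others, beside the 1.91% of all genes. The other mitochondrial genes were rars-2, at pooled rank 15486, and pars-2, with a region in replicate 2 alone at rank 14683. The 17 genes without a stated place may include mitochondrial enzymes, so the 4 may not be the whole class. With 4 genes so named, and both peaks shared with a divergent neighbour, the count is a description of those genes. The strongest synthetase region outside the optimal list was at kars-1, for the lysine enzyme, at rank 2424 in the pooled list and 3349 in replicate 2, with none in replicate 1. It was followed by sars-1, for the serine enzyme, at 7578, and gars-1, for the glycine enzyme, at 9072. All other synthetases with a pooled region ranked 13306 or weaker.

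The 6 peaks differed in how firmly they were called. iff-2, drr-2 and eef-1A.2 had the same deposited q value of 0.00137, the lowest in the pooled list and shared by 365 regions, while aars-1 had 0.00434, ears-2 0.00518 and eif-3.C 0.00529. Just outside the list, eef-1G had a q value of 0.00862 and eef-1A.1 of 0.028. The first 3 were also the only members among the 500 strongest regions of the pooled list.

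Both replicates placed 4 of the 71 genes (5.63%) among their own 952 strongest regions, namely iff-2, drr-2, eef-1A.2 and ears-2, against 0.996% of all protein-coding genes. Replicate 1 alone placed these 4 (5.63%) there, against 1.67% of all genes. Replicate 2 placed 7 (9.86%), adding aars-1, eif-3.C and eef-1G, against 1.99% of all genes. aars-1 ranked within the 2000 strongest of replicate 1, whereas eif-3.C and eef-1G were at 9564 and 9387 there. Leaving out replicate 2 thus gave 4 of the 71 genes and leaving out replicate 1 gave 7.

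**Figure D2:**
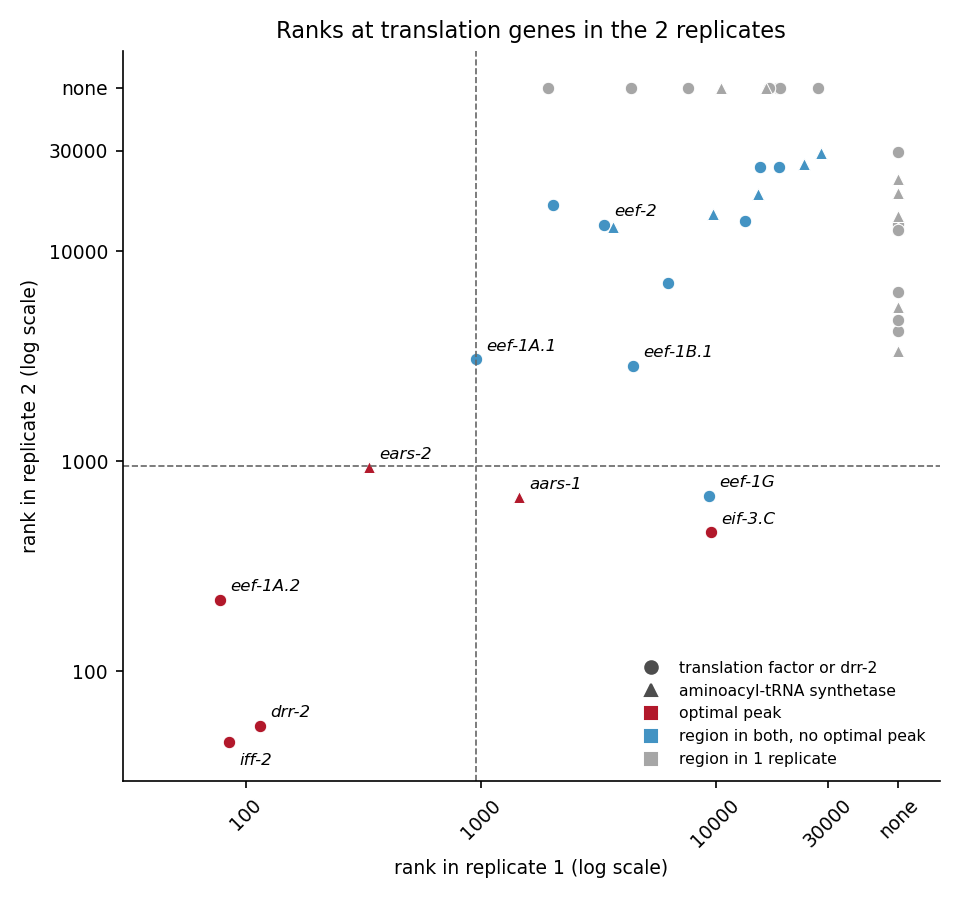
Each point is 1 gene with a region in at least 1 replicate, placed by its rank in replicate 1 and in replicate 2 on log scales, with genes that lack a region in 1 replicate at the edge marked none; dashed lines are rank 952. iff-2, drr-2, eef-1A.2 and ears-2 lie below both lines, and eif-3.C and eef-1G lie far to the right at ranks of 459 and 686 in replicate 2.

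Candidate regions of any strength lay at 34 of the 71 genes in the pooled list (47.9%), against 28.3% of all protein-coding genes. In replicate 1 the number was 29 (40.8%), against 27.6% of all genes, and in replicate 2 it was 34 (47.9%), against 28.8%. A region in both replicates was found at 20 genes (28.2%), against 15.8% of all genes. A region in replicate 1 alone was seen at 9 genes and in replicate 2 alone at 14, and 26 genes had no region in any list. The matching shares of all genes were not counted, so these numbers cannot be read as a trait of the 71 genes. Among the 20 genes with both, the ranks differed by 39 to 14544 with a median of 2050.5. The replicate summits lay within 100 bp of each other at 12 of the 20 genes and further apart at 8, so at some genes the ranks are those of different sites. The largest differences were at eif-3.D, which ranked 2035 in replicate 1 and 16579 in replicate 2, at eef-2, at eif-2A with 15417 and 25185, at qars-1 with 3675 and 13078, and at eif-3.C. The replicate summits were 375 bp apart at eif-2A, 573 bp at ife-1 and 808 bp at qars-1, so their ranks compare different regions, whereas they were 118 bp apart at eif-3.D and 58 bp at eef-2. Of those 20 genes, 14 ranked higher in replicate 1 and 6 in replicate 2.

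The share of the 71 genes with a region was above that of all genes at each depth that was counted. At the 500 strongest pooled regions it was 4.23% against 1.03%, at 2000 it was 11.3% against 3.71%, at 5000 it was 16.9% against 7.59%, and at 10000 it was 19.7% against 12.6%. These shares rest on 3, 8, 12 and 14 genes, and each larger number includes the genes of the smaller ones. The pooled list also shares its reads with both replicates, so the depths and lists are not separate observations. Each replicate had 12 of the 71 genes among its 5000 strongest regions, against 6.17% of all genes in replicate 1 and 7.71% in replicate 2.

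**Figure D3:**
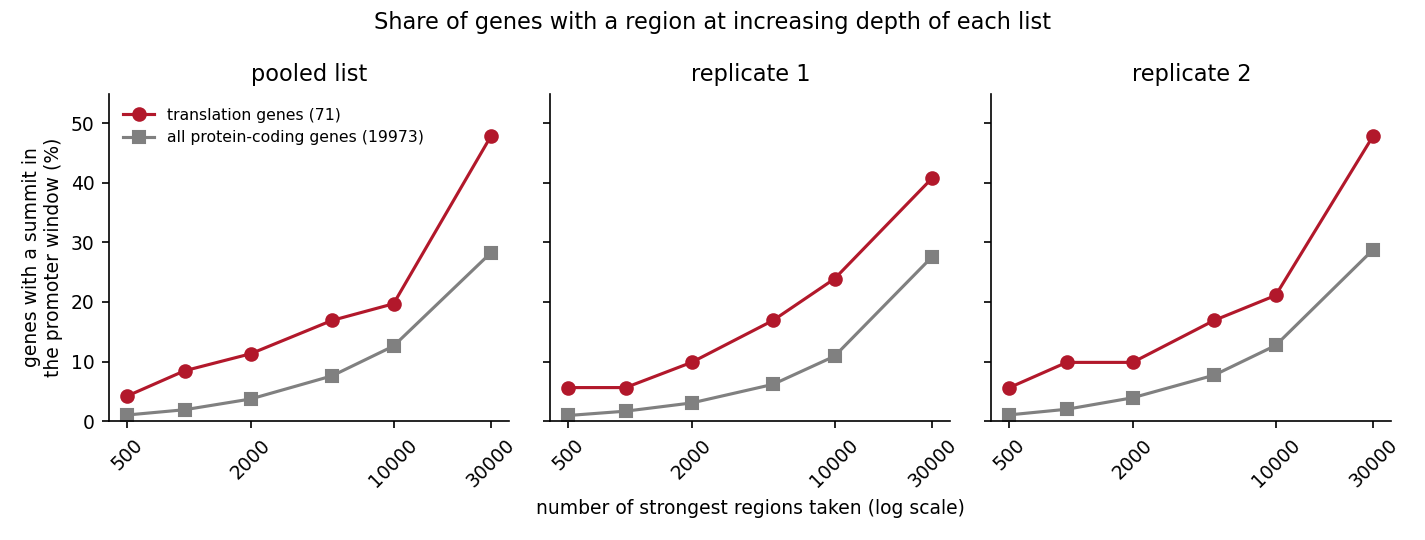
For the pooled list and each replicate, the percent of genes with a summit in the promoter window is plotted against how many of the strongest regions were taken, on a log scale, for the 71 translation genes in red and all 19973 protein-coding genes in grey. The red line is above the grey one at each depth in each list, ending at 47.9% against 28.3% in the pooled list. The depths are nested, so the points of a line are not separate observations.

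Summit positions repeated closely at some of the genes with an optimal peak but not at all of them. The replicate summits were 7 bp apart at eef-1A.2, 10 bp at drr-2, 36 bp at iff-2 and 4 bp at aars-1, but 72 bp at eif-3.C and 111 bp at ears-2. At the genes just outside the optimal list they were 36 bp apart at eef-1G, 37 bp at eef-1A.1 and 5 bp at eef-1B.1. Close summits were not particular to the strongest genes, since they were 3 bp apart at gars-1 (pooled rank 9072) and 13 bp at eif-3.B (pooled rank 4506). At other weak genes they lay further apart, such as 139 bp at aars-2.

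**Figure D4:**
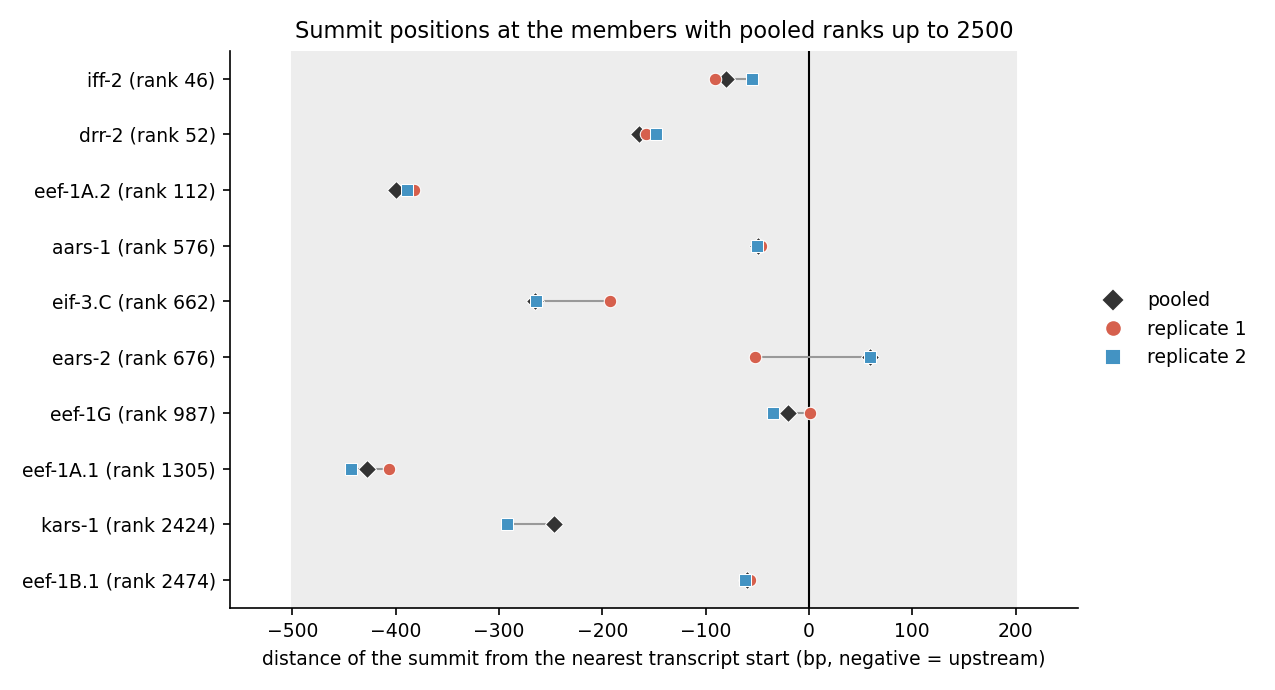
For the 10 genes with a pooled rank of up to 2474, the distance of the summit from the nearest transcript start in bp (negative is upstream) is shown for the pooled list, replicate 1 and replicate 2, with the promoter window shaded. The summits of aars-1 and eef-1B.1 overlie each other, whereas the replicate 1 summit of ears-2 lies on the other side of the transcript start from the other pair.

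Sharing with a neighbour was seen at 3 of the 6 member peaks (drr-2, aars-1 and ears-2) and at 46 of the 334 other optimal peaks in promoter windows (13.8%). No member peak lay within 500 bp of a tRNA or snoRNA gene, against 29 of the 334 (8.68%). With only 6 peaks, that absence is no sign of a lower share. GC content within 50 bp of the summit ran from 36.6% at ears-2 to 61.4% at drr-2, with a median of 48% against 46.5% at the other promoter peaks. The median pooled signal was 165.8 at the 6 peaks and 136.9 at the 334. No member was near 165.8, which falls between 129.9 at aars-1 and 201.6 at eef-1A.2. The signals of aars-1, eif-3.C and ears-2 were below 136.9, and those of iff-2, drr-2 and eef-1A.2 above it. The transgene's own genes were far from all of these: the nearest member lay 999 kb from ztf-22 and 586 kb from unc-119.

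A few short words were counted on both strands within 50 bp of each summit. CTGCGTCTC occurred at 1 of the 6 member peaks, drr-2, and at 6.29% of the other optimal promoter peaks and 1.23% of the other pooled candidate regions. The word TGATAA, of the kind that GATA factors bind, occurred at 0 of 6 against 21% and 9.16%. The E-box word CACGTG occurred at 0 of 6 against 6.89% and 2.97%. With only 6 peaks, a count of 0 is no sign of a lower share for either word. TGCGTA was searched for only after the sequences had been read, so its count is not a test. It occurred at 3 of the 6 member peaks, iff-2, drr-2 and eef-1A.2, against 7.49% of the other optimal promoter peaks and 2.26% of the other candidate regions. It was not found at aars-1, eif-3.C or ears-2. Of the next 4 genes in rank, eef-1G held it and eef-1A.1, kars-1 and eef-1B.1 did not. TGCGTA and CTGCGTCTC share the letters TGCGT, but a match to one is not a match to the other. A match says that the letters are there, and nothing of whether ZTF-22 touches them.

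Optimal peaks also lay near member genes but outside their promoter windows. Within 2 kb of the gene this held for 5 of the 71 (7.04%), against 4.86% of all protein-coding genes. The count is not far from that share, so it only describes the 5 genes, all of which were factors. The summit near eif-3.G (pooled rank 515; 310 in replicate 1 and 775 in replicate 2) was 1045 bp upstream, in an intron. The summit near eif-2Bgamma (rank 877; 5498 and 877) was 867 bp upstream, and it fell into the promoter window when that was widened to 1000 bp.

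The other 3 lay past the ends of elongation factor genes. At eef-1G the summit (rank 559; 2836 and 484) was 291 bp beyond the gene, in a coding exon of another gene. The nearest protein-coding start, 1957 bp away, was that of F17C11.22, so the peak cannot be given to eef-1G. At eef-1A.1 the summit (rank 920; none in replicate 1 and 1122 in replicate 2) was 28 bp beyond the gene, also in a coding exon of another gene. The nearest protein-coding start, 608 bp away, was that of F31E3.12. At eef-2 the summit (rank 743; 1389 and 724) was 1674 bp beyond the gene but 194 bp from the start of pyk-1, for pyruvate kinase. Such peaks were not added to the counts above.

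Other genes of protein synthesis were taken from lists of known factors and regulators that the name rule leaves out, of which 48 of 52 were found in the annotation by name. An optimal peak lay at 2 of the 48 (4.17%), against 1.91% of all protein-coding genes. rheb-1, for the small GTPase that activates TOR, ranked 256 in replicate 1, 147 in replicate 2 and 125 when pooled, with signals of 52.5, 139.3 and 198.3 and a summit 301 bp upstream. pab-2, for a poly(A)-binding protein, ranked 250, 1081 and 540, with signals of 52.9, 77.1 and 132.3 and a summit 108 bp upstream.

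By list, the count was 1 of 11 for factors outside the name rule, 1 of 16 for control of initiation and elongation, 0 of 5 for mitochondrial factors, 0 of 5 for the enzymes that modify eIF5A and eEF2, and 0 of 11 for tRNA modification. The 81 cytosolic ribosomal protein genes had an optimal peak at 11 (13.6%), and the 70 mitochondrial ones at 0, beside the same 1.91%.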

How the data were processed

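The 4 region lists were deposited by the authors on ce11 as narrowPeak text: candidate regions of each replicate, of the pooled reads, and optimal peaks kept after a comparison by the irreproducible discovery rate, made against a control alignment, per the deposited descriptions. The aligner, the peak caller and the thresholds were not given in the sources used here. Column 7 holds the deposited signal of each region, which is the authors' own and ranks regions within a list only. Column 9 holds the deposited −log10 q value, from which q was computed.

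A summit (column 2 plus column 10, counted from 1) was assigned to each Ensembl release 115 (WBcel235) protein-coding gene with a transcript start within the promoter window. Because 1 group was studied, no test between conditions exists, and because genes are not replicates, counts are given beside the share of all protein-coding genes with no p-value. The members and the gene lists were chosen with earlier results of these data known.

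Genes named with values were those with an optimal peak, those among the 952 strongest regions of a replicate, the 5 strongest pooled regions outside the optimal list, the 5 largest rank differences between replicates, paralogs of the first set, and drr-2. ife-3, ife-5, eif-2Bbeta, eif-2Bdelta, eif-6, rars-2, pars-2, sars-1, gars-1 and the genes with distal peaks were added after their values were seen. The window assignment was tested on simulated peaks. Analyses used Python 3.11.15 with numpy 2.4.6 and scipy 1.17.1, and figures matplotlib 3.10.9. Alternatives covered the window, overlap in place of summits, the number of regions, each replicate left out, column 9 ranks, distances to non-coding genes and the motif width. Assignment to the nearest start only, and the set without drr-2, were added after the data were examined. Coverage tracks and alignments were not analysed here.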

Additional observations from a re-analysis of the deposited data

How the results depend on the processing

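Of 40 alternative values, 37 were within 1.5 times the reported one, and a fall from 6 to 4 genes was counted as within. That tally is no measure of robustness, since some alternatives could hardly move, such as the set without drr-2. The other 3 of the 40 follow from how the alternative was built. The strongest 476 optimal peaks gave 3 genes (iff-2, drr-2 and eef-1A.2), against 0.951% of all genes. Taking 5000 regions per replicate in place of 952 gave 7 genes found in both, against 3.19%. Widening the distance to a tRNA or snoRNA gene to 1000 bp gave 1 peak, iff-2. The count of 6 genes with an optimal peak ran from 4 (window of 250 bp upstream to 100 bp downstream, against 1.22%) to 7 (window of 1000 bp upstream, against 2.61%). It ran from 4 without replicate 2 to 7 without replicate 1, was 6 with the nearest start only and was 5 without drr-2. Requiring replicate summits within 100 bp left 3 genes in both replicates, dropping ears-2. Ranks by column 9 were within 1.5 times at the 10 genes checked, but those of iff-2, drr-2 and eef-1A.2 say nothing, since 365 regions tie at their q value and the order of ties set the rank. No paired analysis was possible because there was 1 group. The limits are 1 strain, 2 libraries of unknown depth, signal values with no error of their own, and peaks shared with divergent genes.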
